A study of Mus musculus with 4 samples.

Results

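Abundant cleavage sites of polyadenylated mouse RNA that lacked CLIP alignments of CstF64 are described here. Positions of the 2 3'READS libraries were put together, and neighbours at most 24 nt apart on a strand were joined into clusters. The sites were chosen by their own readout: autosomal clusters with 1000 or more pooled reads, and no CLIP alignment of either replicate centred within 400 nt of the cluster on the same strand. This held for 427 of the 1408 abundant autosomal clusters, which is 30.3% (exact 95% interval 27.9 to 32.8), out of 56206 clusters of 3 or more reads in the series. The other 981 abundant autosomal clusters had at least 1 such alignment and serve as the comparison.

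3'READS locates the 3′ ends of RNA by capturing fragments that carry a poly(A) tail and sequencing them up to the cleavage position. The RNA was a commercial mix from 11 mouse cell lines, captured once with the CU5T45 oligo, a stretch of 45 T with 5 U, and once with regular oligo(dT)10-25 beads. Both 3'READS libraries share this RNA and differ in the capture. CLIP-seq of CstF64 was made in C2C12, a mouse myoblast line that was kept proliferating, and has 2 replicates from ultraviolet-irradiated cells. The sites were thus mapped in one source of RNA and the crosslinks in another, and the RNA level in C2C12 was not analysed here.

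CstF64 is the subunit through which the cleavage stimulation factor touches RNA. During 3′ end formation, the cleavage and polyadenylation specificity factor recognises the poly(A) signal upstream of the cleavage site, and the cleavage stimulation factor binds U- and GU-rich sequence downstream of it. After cleavage, poly(A) polymerase adds the tail that 3'READS captures. CLIP joins a protein to the RNA it touches with ultraviolet light, so it can find CstF64 only on RNAs that the cells make.

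The CU5T45 library held 6738355 reads and the oligo(dT)10-25 library 3482826, and the CLIP replicates held 1101047 and 1352122 alignments. Each oligo had 1 library, so intervals of their ratios cover counting error only, there is no replicate error, and no p-value was computed. Amplified copies are not independent molecules, which makes these intervals too narrow. The CLIP replicates were nearly the same library: 90.8% of the replicate 1 alignments under 50 nt were also in replicate 2. Their counts at 701 abundant clusters with CLIP differed by less than sampling noise (chi-square divided by its degrees of freedom, 0.285), so they were counted as 1 sample. Positions are those of the mm9 build named by the submitters. No annotation or genome of that build was used here, so the genes behind the sites are not named, no sequence is printed, and the labelled cells were not checked against marker genes.

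The sites without CLIP held much of the captured RNA. They took 2858961 reads, which is 43.9% of the reads of abundant autosomal clusters and 28.0% of all reads. The 10 most abundant of them held 27.0% of this sum. Their share was 27.5% in the CU5T45 library and 28.9% in the oligo(dT)10-25 library. Reads per site ran from 1000 to 154858 with a median of 2353, beside a median of 1841 at abundant clusters with CLIP. In a mix of cell lines, fewer cells of a type and less RNA per cell cannot be told apart.

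Among all 16179 autosomal clusters of 30 or more reads, 32.5% had no CLIP in the same window, beside the 427 of 1408 abundant ones. Since reads and CLIP chose the sites, the shares by abundance are a description. Of clusters with 30 to 99 reads 36.4% had no CLIP, and of those with 1000 to 1999 reads 25.6%. From there the share was higher in each class of more reads. It was 29.1% at 2000 to 4999 reads, 38.6% at 5000 to 9999 and 53.0% at 10000 to 49999 reads. In the class of 50000 or more, 8 of 11 clusters had none. Of the 20 autosomal clusters with most reads, 14 belonged to the set.

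**Figure D1:**
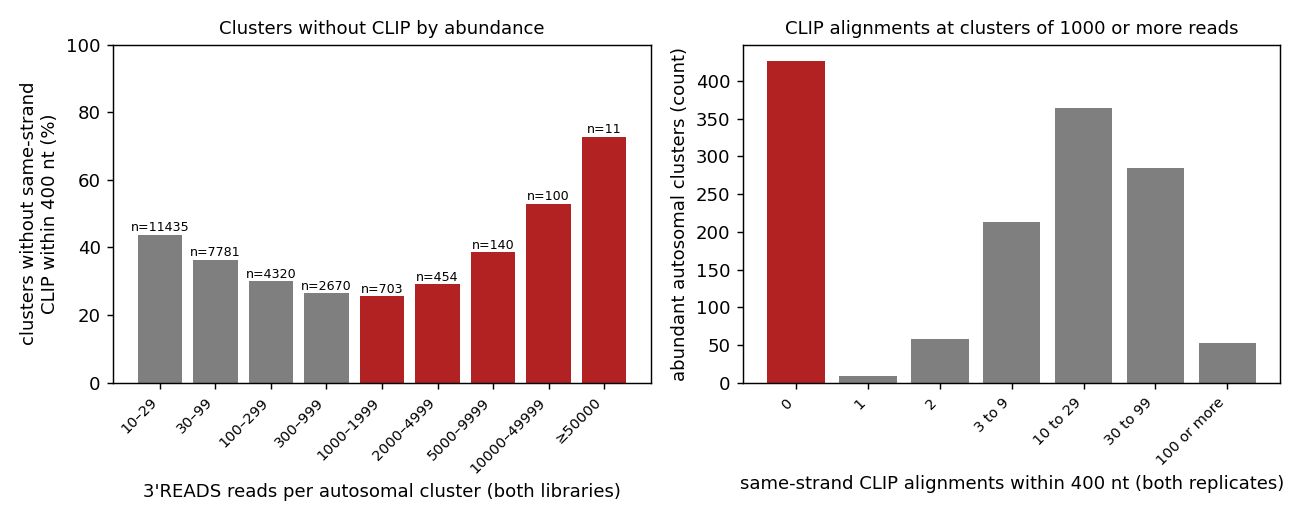
Left, the percentage of autosomal clusters without same-strand CLIP within 400 nt (y axis) by pooled 3'READS reads (x axis, n above each bar; red, 1000 or more reads). Right, the number of abundant clusters (y axis) by their CLIP alignments from both replicates (x axis); 427 stand at 0, 9 at 1 and 364 at 10 to 29.

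Few abundant clusters had a CLIP count just above 0. Where abundant clusters had CLIP, the median was 19 alignments over both replicates. Only 9 clusters had exactly 1 alignment and 58 had 2, beside 427 with 0. Because the replicates shared most alignments, a count of 2 can be 1 alignment seen in both. A count of 0 allows up to 3 expected alignments, a fixed limit for 1 sample. For the pooled count the limit is higher, because the replicates are not independent. CLIP in 1 replicate alone was found at 15 clusters. Among the sites with most reads outside the set, chr15:100504852, minus strand, had 339820 reads and 17 alignments. The plus-strand site at chr11:67073943 had 144808 reads and 2 alignments, 1 in each replicate, so it fell just outside the set. At the read minimum, the members just inside had 1000, 1003 and 1005 reads, and the clusters without CLIP just outside had 999, 998 and 995. The abundant clusters left out with the most distant alignments had them at 348.5, 346.5 and 346.5 nt.

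The most abundant member was chr15:78021908 on the minus strand, with 109855 CU5T45 reads (16303 CPM, reads per 1000000 library reads) and 45003 oligo(dT)10-25 reads (12921 CPM). Its CU5T45 share was 1.26 times its oligo(dT)10-25 share (interval 1.25 to 1.28). Cleavage there was dispersed. The most used position held 47.5% of the reads, and a second position 18 nt downstream held 23.1%. The nearest same-strand CLIP alignment lay 17925 nt downstream.

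The next member, chr7:20274829 on the minus strand, had 63403 CU5T45 reads (9409 CPM) and 51073 oligo(dT)10-25 reads (14664 CPM). It was lower in CU5T45 by a factor of 1.56 (1.54 to 1.58). Nearly all of its RNA ended at the same nucleotide, with 99.2% of the reads at 1 position. The third, chr5:90905627 on the plus strand, had 43200 (6411 CPM) and 63530 reads (18241 CPM), and its CU5T45 share was 2.85-fold lower (2.81 to 2.88). Its nearest same-strand CLIP alignment lay 105620 nt upstream.

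The members that follow stood close to equality between the oligos. The fourth, chr2:164602660 on the minus strand, had 52410 and 21442 reads (7778 and 6156 CPM). The fifth, chr4:49549296 on the minus strand, had 46332 and 24415 reads (6876 and 7010 CPM), and the sixth, chr1:174140024 on the minus strand, 38961 and 18805 reads (5782 and 5399 CPM). The fifth put 96.0% of its reads at 1 position. In contrast, the sixth had a second position 3 nt upstream of the first, with 38.5% of the reads beside 53.9%.

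**Figure D2:**
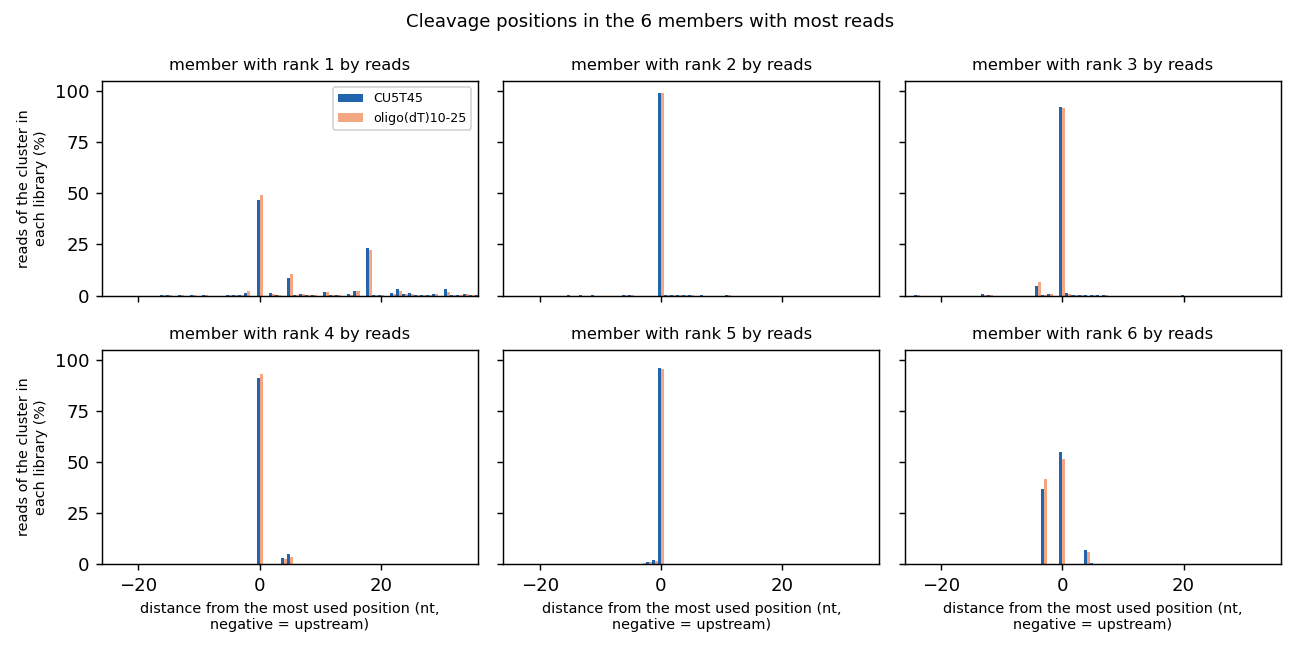
Percentage of a cluster's reads (y axis) at each distance from its most used position (x axis, nt, negative upstream), in the CU5T45 (blue) and oligo(dT)10-25 (orange) library, for the 6 members with most reads. Both libraries show the same positions: the first member has peaks at 0 and 18 nt, the sixth at 0 and −3 nt, and the second member 1 position.

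Of the other members named for their reads, chr6:138105275 on the plus strand (29853 and 24252 reads) was the one with CLIP nearest, 549 nt upstream of the cluster. It ended at 1 position for 99.5% of its reads. chr16:10791472 on the minus strand had 40328 and 12542 reads, chr7:34807892 on the plus strand 31051 and 14602, and chr9:46079493 on the plus strand 30167 and 10338. These were higher in CU5T45, with ratios of 1.66, 1.10 and 1.51. The last, chr6:41802063 on the plus strand, had 26860 and 11645 reads, and its nearest same-strand alignment lay 221424 nt upstream.

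The read minimum was on the sum of both libraries, so a site could enter through the library where it was high. The ratios by oligo are therefore a description. Most members differed little by oligo. The median log2 ratio of CU5T45 to oligo(dT)10-25 shares was 0.27 (SD 0.99 across the 427 members), beside 0.34 (SD 0.88) at abundant clusters with CLIP and 0.11 at all clusters of 30 or more reads. Within 2-fold lay 350 members (82.0%) and 802 of the comparison clusters (81.8%). The interval lay above 1 at 255 members, below 1 at 128, and included 1 at 44.

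Large differences were called where the ratio reached a fold in either direction and its interval excluded 1. At least 4-fold higher in CU5T45 were 3 members (0.703%), beside 1.75% of all 16684 clusters of 30 or more reads and 1.33% of abundant clusters with CLIP. At least 4-fold lower were 12 members (2.81%), beside 4.51% of all clusters and 1.43% of those with CLIP. At 2-fold, 38 members were higher (8.90%, background 11.1%) and 39 lower (9.13%, background 14.1%). Exact intervals of the members' shares were 0.145% to 2.04% for 4-fold higher and 1.46% to 4.86% for 4-fold lower. At 2-fold they were 6.37% to 12.0% for higher and 6.58% to 12.3% for lower. They treat the sites as independent, although 136 members shared a locus with another member. The pooled read minimum also gives more weight to the deeper CU5T45 library, so these shares partly follow from the rule. No difference from the background is read from them. For 4-fold lower, the interval of the clusters with CLIP was 0.782% to 2.38%, which overlaps that of the members. Clusters of 30 reads scatter more than those of 1000, which the background does not take into account.

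Of the 6 members with the lowest ratios, 4 had fewer than 1000 CU5T45 reads and passed the read minimum only with their oligo(dT)10-25 reads. Lowest of all was chr10:32976942 on the plus strand, with 15 CU5T45 reads (2.23 CPM) and 2103 oligo(dT)10-25 reads (604 CPM). It was 271-fold lower (164 to 486), and its 3 positions put 99.7% of reads at 1 nucleotide. A second such site lay on the same strand of that chromosome, at 32953731, with 26 and 1165 reads (86.7-fold lower, 58.9 to 133) and 99.8% at 1 of 3 positions. Both stand apart from the rest of the members in the plot of CPM by oligo. chr5:88757838 on the plus strand had 2182 CU5T45 reads (324 CPM) against 35002 (10049.9 CPM), which is 31.0-fold lower (29.7 to 32.4).

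chr7:104561445 on the minus strand followed with 415 and 3204 reads, 14.9-fold lower (13.5 to 16.6). It differed from the sites above in shape, with 32.5% of reads at its most used position. At chr11:69919688, plus strand, there were 125 and 896 reads, and CU5T45 was lower by a factor of 13.9 (11.5 to 16.9). chr3:14872538 on the plus strand, among the 12 most abundant members, counted 8207 and 32263 reads and was lower by a factor of 7.61 (7.42 to 7.79). The remaining 6 members at least 4-fold lower ran from 4.55-fold to 7.17-fold.

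In the other direction, chr9:37410882 on the minus strand had 973 CU5T45 reads (144 CPM) and 74 oligo(dT)10-25 reads (21.2 CPM), 6.80-fold higher (5.36 to 8.73). chr5:8959225 on the plus strand was 5.62-fold higher (4.83 to 6.57) with 2000 and 184 reads. The most abundant of these was chr4:136976918 on the minus strand, 4.51-fold higher (4.27 to 4.77) with 12498 and 1432 reads. Ratios of 3.39, 3.09 and 2.99 followed at chr3:90473951, chr5:67078469 and chr6:121176115, all on the plus strand.

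**Figure D3:**
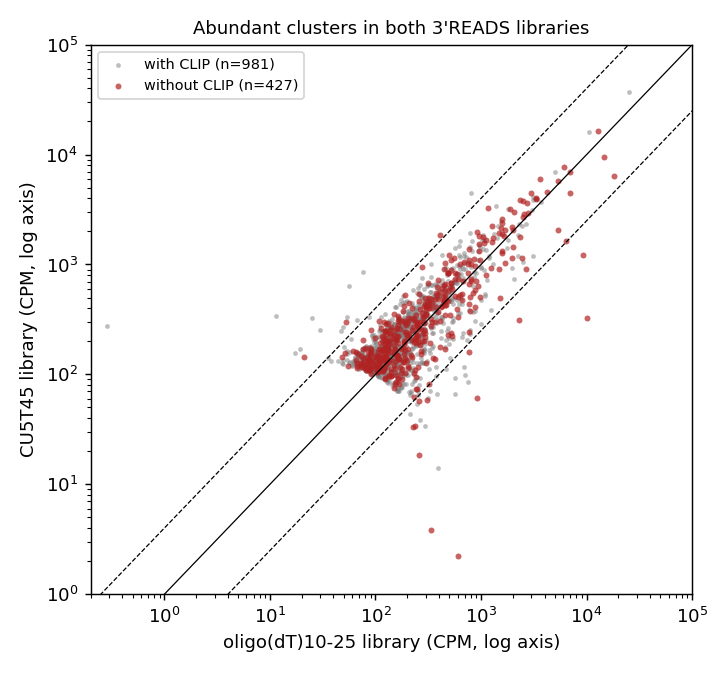
Abundance of the 1408 abundant autosomal clusters in the CU5T45 (y axis) and oligo(dT)10-25 library (x axis), both in CPM on log axes; red, 427 without CLIP, grey, 981 with CLIP, solid line equality, dashed lines 4-fold. Most red points lie between the dashed lines, and 2 red points lie far below at 2.23 and 3.86 CPM in CU5T45.

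Cleavage was about as spread out at members as at abundant clusters with CLIP. The share of reads at the most used position had a median of 76.2% (quartiles 56.1 to 90.9), beside 75.9% (55.8 to 92.1). It held 90% or more at 116 members (27.2%) and at 29.6% of the comparison clusters, and less than 50% at 74 members (17.3%) and 18.8%. The central 90% of reads spanned a median of 6 nt in both sets. The full span was wider at members, with medians of 36 and 29 nt, but more reads find more rare positions. After each cluster was thinned at random to 1000 reads, both medians were 24 nt. The sets stood further apart at 10000 or more reads, where the median share at that position was 85.2% for 61 members and 70.4% for 50 clusters with CLIP. At 5000 to 9999 reads these medians were 70.8% and 69.7%, and at 1000 to 1999 reads 77.9% and 75.8%. At 2000 to 4999 reads the order was the other way, with 73.8% for members and 78.4% with CLIP.

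Both oligos mostly found the same nucleotide. The most used position was identical in both libraries at 400 members (93.7%) and at 93.9% of the clusters with CLIP, and it lay within 2 nt at 405 members. The share at that position differed between libraries by a median of 2.57 percentage points, and by over 20 points at 14 members. The widest difference, singled out after its values were seen, was at chr11:69919688, where that position held 95.6% of the oligo(dT)10-25 reads and 32.0% of the 125 CU5T45 reads. In that library the most used position lay 8 nt away.

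The members with the widest central span differed in where their second most used position lay. chr5:138431460 on the plus strand had a central span of 88 nt, with 79.0% of 3949 reads at its main position and 7.09% at a position 80 nt upstream. chr1:162932670 on the plus strand, with 7159 reads, spanned 67 nt, with its second position 6 nt downstream (39.3%). chr4:98704738 on the plus strand, with 4709 reads, spanned 64 nt, with its second position 10 nt downstream (18.4%). At the other end, the 3 most abundant members with a central span of 1 nt were those ranked 2, 5 and 7 by reads.

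**Figure D4:**
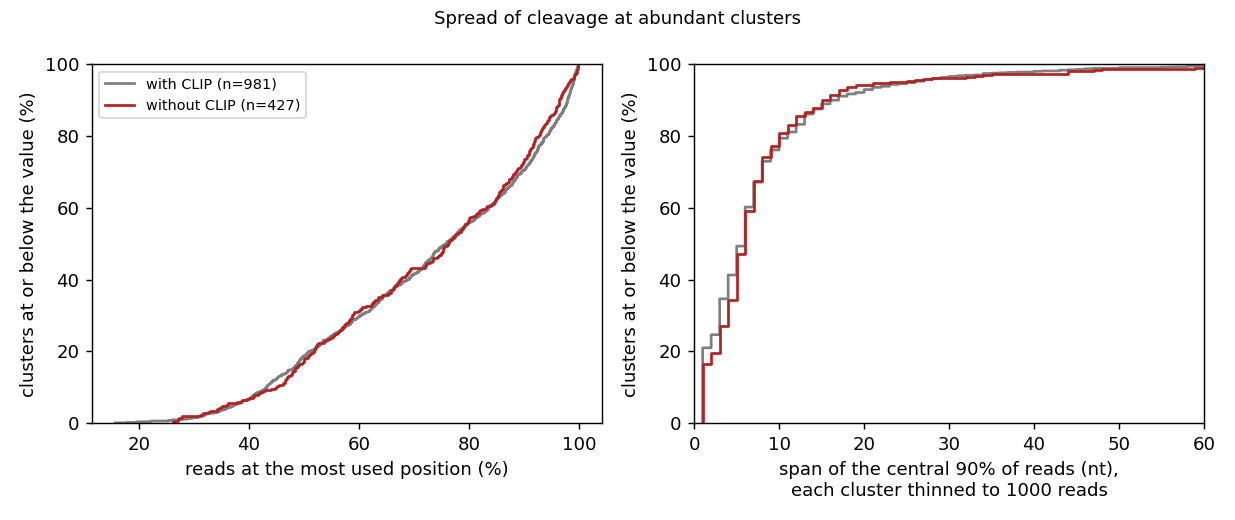
Percentage of abundant clusters at or below a value (y axes), for the share of reads at the most used position (left, %) and the span of the central 90% of reads after thinning to 1000 reads (right, nt, axis ends at 60). The lines of clusters without CLIP (red) and with CLIP (grey) run close together, with a median span of 6 nt in both.

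Several members lay near each other. Chained at 100 kb on either strand, 136 members (31.9%) fell into 60 loci of 2 or more, beside 31.3% of the 981 abundant clusters with CLIP. The comparison set has more sites, which by itself brings more of them within 100 kb, so these shares do not compare how closely the sets gather. The loci were looked at after their values were seen. The largest had 5 members each and no abundant cluster with CLIP inside. At chr9:46038465-46079528, CU5T45 to oligo(dT)10-25 ratios ran from 0.322 to 1.72. At chr2:164015161-164160142 they ran from 0.255 to 2.14. Sites within these loci therefore differed by oligo in both directions.

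Members in tandem showed this over short distances. There were 15 pairs of neighbouring members on the same strand 114 to 760 nt apart, whose CLIP windows partly overlap. Intervals of the ratio were separate in 11 pairs, with the distal site higher in 5 of them and the proximal site in the other 6. On the minus strand of chromosome 5, the proximal site at 87495173 had a ratio of 2.53 (2.27 to 2.82), and the distal site 228 nt on, at 87494945, 0.867 (0.787 to 0.956). A second pair 245 nt apart, at 87554220 and 87553975, had 2.12 (1.93 to 2.32) and 1.13 (0.995 to 1.28). The opposite order was found on chromosome 4, minus strand, where the proximal site at 96295836 had 0.919 (0.864 to 0.977) and the distal site at 96295463 had 2.33 (2.08 to 2.60).

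CLIP alignments farther away were not used by the rule, though they come from the same libraries. They adjoin the window that chose both sets, so the contrasts with the comparison clusters partly follow from the rule. From the edge of the 400 nt window out to 5000 nt, 106 members (24.8%, interval 20.8 to 29.2) had a same-strand alignment, beside 955 of 981 abundant clusters with CLIP (97.3%). The other 321 members had no CstF64 CLIP alignment on their strand over this whole stretch. Upstream, where the transcript that ends at the site would lie, 68 members (15.9%) had an alignment and 94.5% of the comparison clusters. Downstream the numbers were 66 members (15.5%) and 932 of the 981 others. Per kilobase of this stretch, members had 0.260 alignments upstream and 0.268 downstream, and clusters with CLIP 9.85 and 7.01. The 10 members with the most held 54.3% of the upstream sum.

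Many members lay far from any CLIP alignment on their strand. Within 20000 nt, 217 of the 427 members had no same-strand alignment, and within 100000 nt 64 had none. The median distance to the nearest was 20804 nt, upstream for 207 members and downstream for 220. The farthest was 429418 nt, at chr9:45218360 on the plus strand (1038 and 238 reads), followed by its neighbour chr9:45204241 at 428704 nt. The closest were chr16:78340997, chr6:29487319 and chr19:37095784, at 403.5, 407 and 413.5 nt, just outside the window.

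Some members lay beside a site with CLIP. Another cluster of 30 or more reads stood within 5000 nt on the same strand at 182 members (42.6%) and 411 clusters with CLIP (41.9%). At 19 of these members (4.45% of 427), a neighbour had CLIP within 400 nt, beside 387 of the comparison clusters (39.4%). The window of a close neighbour overlaps the window that chose the sites, so this contrast partly follows from the rule. The most abundant of the 19, named after the values were seen, was chr9:119057160 on the minus strand, with 5538 and 2048 reads and CLIP 458.5 nt upstream. The member with most alignments in this stretch was chr7:31727386 on the minus strand (1242 and 925 reads), with 80, all upstream. The 106 members with CLIP in this stretch and the 321 without had median log2 ratios of 0.33 (SD 0.78) and 0.25 (SD 1.06), and 2 and 10 of them were at least 4-fold lower in CU5T45.

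CLIP on the opposite strand was not used to choose the sites. Within 400 nt, 57 members (13.3%, interval 10.3 to 16.9) had an opposite-strand alignment, below the 17.3% of all autosomal clusters of 30 or more reads. Of the abundant clusters with CLIP, 205 had one (20.9%, interval 18.4 to 23.6). By reads, the share of members was 10.0% at 1000 to 1999, 10.6% at 2000 to 4999, 24.1% at 5000 to 9999 and 19.7% at 10000 or more, beside 19.3%, 24.8%, 18.6% and 16.0% with CLIP. Among members, 24 of the 106 with same-strand CLIP out to 5000 nt had an opposite-strand alignment (22.6%), and 33 of the 321 others (10.3%). From 400 to 5000 nt, members had 0.494 opposite-strand alignments per kilobase upstream and 1.13 downstream. The 10 members with the most held 44.6% and 36.7% of these sums. Both values are above the 0.260 and 0.268 on the members' own strand, whereas clusters with CLIP had 0.901 and 2.23 beside 9.85 and 7.01. Own-strand CLIP beside the site chose both sets, so this order of the strands partly follows from the rule.

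**Figure D5:**
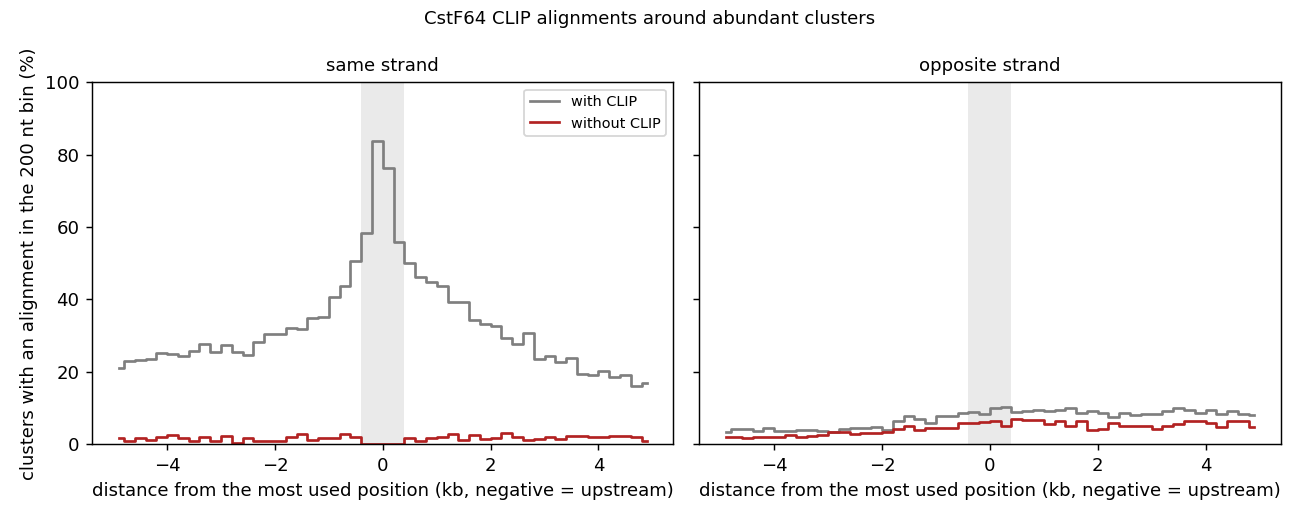
Percentage of abundant clusters with a CLIP alignment in each 200 nt bin (y axis) by distance from the most used position (x axis, kb, negative upstream), on the same (left) and opposite strand (right). Grey, 981 with CLIP, red, 427 without, shaded, 400 nt on each side of the most used position. The choice used 400 nt from the cluster edges, on the same strand only, so the same-strand contrast beside it partly follows from the choice. On the same strand, clusters with CLIP reach 83.7% in the bin before the site, and clusters without CLIP stay low across the whole plot, on both sides of the shaded stretch.

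Where opposite-strand alignments were present they could be many. The highest number was at chr10:128395329 on the minus strand (14931 and 6861 reads), with 15 alignments in replicate 1 and 26 in replicate 2, while its own strand had none within 34801 nt. chr10:29065756 on the plus strand (620 and 433 reads) had 14 and 22, and chr7:149676983 on the minus strand (1906 and 563 reads) had 16 and 16. chr7:148084840 had 14 and 16, chr11:5701640 had 11 and 15, and chr4:140981229 had 7 and 12. At these sites CLIP was placed on the other strand of the same stretch. Of the 57 members, 54 had an opposite-strand alignment in both replicates, and the median was 4 alignments.

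Members were found on every autosome, from 17.1% of the abundant clusters of chromosome 15 (12 of 70) to 44.1% of those of chromosome 16 (15 of 34). The largest number was on chromosome 7, with 46 of 126. The plus strand held 221 and the minus strand 206. On the X chromosome, which the rule left out, 16 of 29 abundant clusters had no CLIP. Whether these RNAs were absent from proliferating C2C12 cells, or present without recovered crosslinks, was not tested. How uniquely CLIP reads align at these sites was not examined either.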

How the data were processed

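The deposited read counts, the fifth column of each file, are whole numbers, with no normalization named per the labels. The submitters' processing notes name Bowtie, Novoalign and mm9, without versions or roles, and filters are not given in the sources used here. Each 3'READS line is a cleavage position, and each CLIP line a distinct alignment (median length 35 and 36 nt). Positions are exact to within 1 nt, since the counting base is not stated.

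Computed here with Python 3.11.15, numpy 2.4.6, pandas 2.3.3 and scipy 1.17.1: clusters, CLIP alignments counted by midpoint, CPM, and ratios of library shares with exact conditional binomial 95% intervals at 30 or more reads. A count of 0 would be set to 3 reads. Shares have Clopper-Pearson intervals, which cover counting error only. Functions were tested on simulated data.

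Named sites are the 12 members with most reads, 6 highest and 6 lowest ratios, 3 widest and 3 narrowest spans, 6 with most opposite-strand CLIP, and 3 at each limit. Members and lists were chosen with earlier results of these data known. Gene lists were not measured, since the reference given was of another build. Alternatives changed the gap, read minimum, windows, placement of alignments, thinning and CLIP replicate.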

Additional observations from a re-analysis of the deposited data

How the results depend on the processing

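Of 85 values recomputed under alternatives, 65 stayed and 20 did not. To stay meant within 1.5 times the count, or within the counting interval of the share or median. Only the median log2 ratio could be called reversed, and 0 of its 10 values were. A minimum of 500 reads gave 751 members, 6 of them at least 4-fold higher and 27 lower in CU5T45, and a minimum of 2000 gave 247 members with 6 lower. These follow from the number of clusters admitted. At 2-fold, 38 were higher and 39 lower. If a position counts as 1 read in each library where it was seen, 75 members had 30 or more such reads over both libraries. Of these, 0 were at least 4-fold higher and 0 lower. Most members called at 4-fold had too few positions to enter, so this count cannot show whether their differences come from amplified copies. The median span of 36 nt was 23 nt with a gap of 10 nt, 46 nt with a gap of 40 nt, 27 and 42 nt with minimums of 500 and 2000 reads, 24 nt after thinning to 1000 reads, and 6 nt for the central 90% of reads. The share of members with opposite-strand CLIP was 19.2% in a window of 1000 nt. The share with same-strand CLIP within 5000 nt was 31.0% and 17.9% when members were chosen with windows of 200 and 1000 nt, which gave 465 and 391 members. It was 15.2% within 2000 nt and 49.2% within 20000 nt. Without either CLIP replicate, members numbered 432 and 437. No paired analysis was possible because the oligos have 1 library each and the CLIP replicates are 1 group.

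CLIP depth limits the set, since a count of 0 in 1 sample allows up to 3 expected alignments, and more in the pooled count. Intervals cover counting error only, and each oligo has 1 library.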
